A study of Homo sapiens with 4 samples.

Results

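Among the stretches of open chromatin recorded in H1 cells, 10890 of 87966 regions had an ATAC-seq peak only after Activin A and Wnt3a were given together. They were chosen by presence and absence in 4 peak lists. Peaks of the lists that overlapped or touched were joined, and the joined region was kept when the list of cells given both ligands had a peak there and the Activin A, Wnt3a and control lists had none. Each of the 10890 regions was formed by 1 peak. They made up 19.4% (95% interval 19.1 to 19.8) of the 56055 regions of the both-ligand list. ATAC-seq uses a transposase that cuts and tags DNA where chromatin is accessible. H1 is an established human embryonic stem cell line.

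The both-ligand group received Activin A and Wnt3a at 25 ng/ml each, the other treated groups received 1 of the ligands at 25 ng/ml, and all treated cells were harvested after 6 h. Treated cells were kept in a B27 medium for which no basic fibroblast growth factor is listed. Control cells were grown alongside in N2B27 medium, which contains that factor at 20 ng/ml, and no harvest time was given for them, so ligand and medium cannot be told apart in a comparison with control. All groups grew on Matrigel without feeder cells. Each group was 1 library, so no difference was tested between groups. Regions of 1 library are not replicates, and the intervals given, exact binomial ones for shares and order-statistic ones for medians, cover counting error only. The label of the cell type was not checked against marker genes, because gene positions of the build were not used here.

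Activin A binds receptors that phosphorylate SMAD2 and SMAD3, which then enter the nucleus with SMAD4. Wnt3a stabilises beta-catenin, which acts through the TCF and LEF factors. In human embryonic stem cells the pair of signals induces mesendoderm, the precursor of mesoderm and endoderm. An early response of this kind can include opening of enhancers, which often lie far from the genes they serve.

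The absence of an Activin A peak set most of the membership. In the both-ligand list, 21.0% of regions had no Activin A peak, 67.9% had no Wnt3a peak and 62.5% had no control peak, so 10890 of the 11753 regions without an Activin A peak were members. These shares are what the rule used and are no result about the members. The both-ligand list held 58382 peaks, the Activin A list 75585, the Wnt3a list 21078 and the control list 26223, and the number of reads behind each is unknown. Whether a weak peak reaches a list can depend on that number, and its part in the membership was not tested. In the same way, 26500 regions (36.2% of its list, 35.9 to 36.6) were found after Activin A alone, 821 (4.15%, 3.87 to 4.43) after Wnt3a alone and 2241 (9.05%, 8.69 to 9.41) in control alone.

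Regions found only with both ligands were weak within their list. The score of a peak is the authors' own value, which is read here only as a rank within 1 list. Its lowest value in the both-ligand list was 50.03. The members had a median score of 60.6, with the 10th and 90th percentiles at 51.2 and 89.1. The other both-ligand peaks had a median score of 113. None of the 5001 best-scoring peaks was a member (exact upper bound 0.0737%). Among the best 10000 peaks 3 were members, among the best 20008 peaks 134 (0.670%, 0.561 to 0.793), and among the best 40003 peaks 3192 (7.98%, 7.72 to 8.25). Scores of at least 100 were reached by 683 members (6.27%, 5.82 to 6.74) and scores of at least 200 by 7.

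Membership fell steadily with score. It was 52.4% (51 to 53.7) in the lowest decile of both-ligand scores, 16.6% (15.6 to 17.6) in the fifth decile and 0.892% (0.663 to 1.17) in the eighth. No member lay in the highest decile, of 5606 regions. Regions found after Activin A alone followed the same course within their own list, at 76.1% (75.1 to 77.1), 45.6% (44.4 to 46.7) and 4.39% (3.93 to 4.89) in those deciles, and 1 of them lay in the highest. As the score enters whether a peak is listed at all, these shares describe the members and were not tested.

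**Figure D1:**
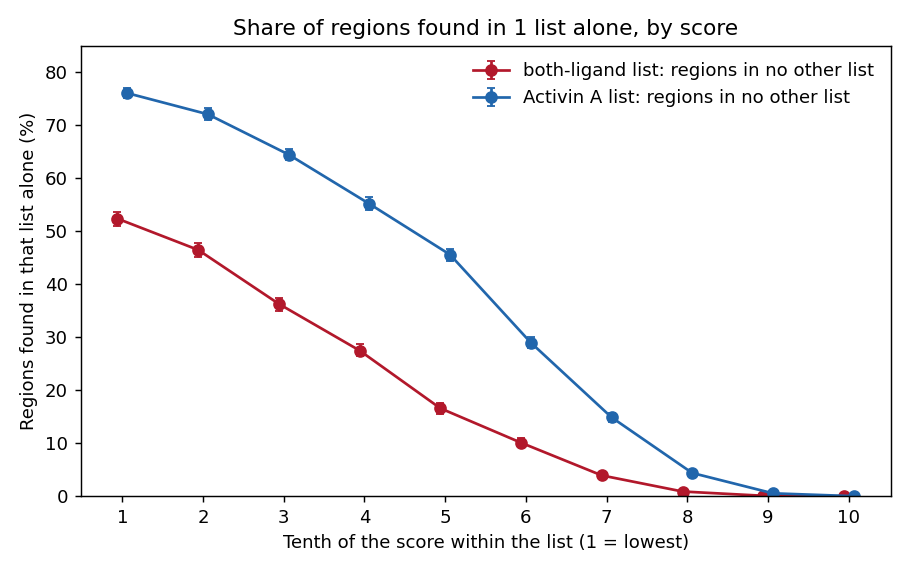
Share of regions found in 1 list alone (vertical axis, percent) by decile of the score within that list (horizontal axis), for the both-ligand list in red and the Activin A list in blue, with 95% exact binomial intervals. Both curves fall with score, and the red one runs from 52.4% in the lowest decile to 0 in the highest.

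The strongest member lay on chromosome X at 5566733 to 5567910 in band Xp22.32, a peak 1178 bp wide. Its score was 288, rank 7599 of the both-ligand peaks and thus within their best 13.0%. The nearest peaks of other lists were 445681 bases away after Activin A, 371350 bases after Wnt3a and 1833264 bases in control, and the nearest other both-ligand region was 405732 bases away. No other region among the 10 strongest was as far from Activin A peaks.

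The next members in order of score had other lists' peaks much closer. On chromosome 13, at 24205978 to 24207515 in 13q12.12, a peak of 1538 bp scored 269.9 and lay 10232 bases from an Activin A peak. On chromosome 3, at 124607185 to 124608676 in 3q21.2, a peak of 1492 bp scored 243 but began or ended 71 bases from an Activin A peak, 459 bases from a Wnt3a peak and 450 bases from a control peak. Peaks of every list thus lay within 500 bases of that region. On chromosome 6, at 102164324 to 102165242 in 6q16.3, a peak of 919 bp scored 229 and lay 15136 bases from an Activin A peak. The region on chromosome 14 at 68400591 to 68401304, in 14q24.1, scored 221 and had an Activin A peak 223 bases away.

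The remaining 5 of the 10 strongest had scores of 185 to 205. Both of those on chromosome 12 were in the dark band 12q12, at 45677788 to 45678619 (score 205) and at 42633748 to 42635392 (score 199). The others were at 75795035 to 75795809 on chromosome 5 (5q13.3, score 200.4), at 75717791 to 75719396 on chromosome 18 (18q23, 193) and at 17760828 to 17761451 on chromosome 2 (2p24.2, 185). Of the 10 strongest members, 2 had an Activin A peak within 1 kb, and 7 had no peak of any other list within 5 kb.

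Most members lay more than 1 kb from any peak of the other lists. The gap from a member to the nearest Activin A peak had a median of 7846 bases (7541 to 8183). The corresponding median was 36716 bases (35397 to 38166) for Wnt3a peaks and 27919 bases (26810 to 29083) for control peaks. These gaps rank as the lengths of the lists do. An Activin A peak lay within 1 kb of 1801 members (16.5%, 15.8 to 17.2), a Wnt3a peak of 446 (4.10%, 3.73 to 4.48) and a control peak of 608 (5.58%, 5.16 to 6.03). No peak of any other list lay within 1 kb of 8988 members (82.5%, 81.8 to 83.2), and none within 5 kb of 6312 (58.0%, 57.0 to 58.9).

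**Figure D2:**
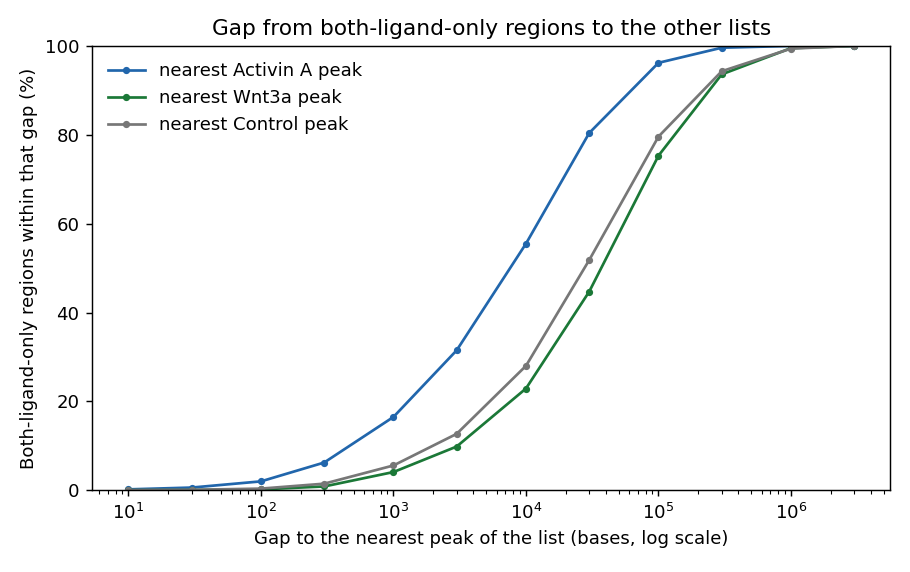
Share of the 10890 both-ligand-only regions (vertical axis, percent) whose nearest peak in the Activin A, Wnt3a or control list lies within a given number of bases (horizontal axis, log scale). At 1 kb the curves stand at 16.5% for Activin A, 4.10% for Wnt3a and 5.58% for control.

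Where an Activin A peak was that close, its region was most often one found after Activin A alone. This held for 610 of the 1801 members with an Activin A peak within 1 kb (33.9%, 31.7 to 36.1), against 36.2% of all Activin A regions. A region present in all 4 lists was the neighbour of 352 (19.5%, 17.7 to 21.5), against 17.8% of all Activin A regions. The neighbours thus had a makeup near that of the Activin A list as a whole.

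The rule separates regions by single bases. The members nearest to another list were at 99183165 to 99183744 on chromosome 4 (4q23, score 59.8), with an Activin A peak 1 base away, and at 6718337 to 6718879 on the same chromosome (4p16.1, 62.3), with a gap of 2 bases. On chromosome 9, at 98810563 to 98811059 (9q22.32, score 56.1), the gap was 2 bases to a Wnt3a peak. On chromosome 6, at 34663709 to 34664289 (6p21.31, 50.8), it was 2 bases to an Activin A peak, and on chromosome 12, at 51158959 to 51159460 (12q13.12, 65.4), it was 3 bases to a Wnt3a peak. Just outside the rule, the both-ligand peak shared 1 base with an Activin A peak in 7q36.3 (score 125) and in 12q14.3 (64.4), and 1 base with a control peak in 4q21.3 (58.3). It shared 2 bases with an Activin A peak in 16p13.3 (60.1) and in 1p35.2 (59.5). Few regions were this close: 263 members had another list's peak within 100 bases, and 139 regions outside the rule overlapped one by at most 100 bases.

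The members were narrow, and their width was close to that of other peaks of like score. Their median width was 584 bp (583 to 585), with the 10th and 90th percentiles at 483 and 785 bp, against 818 bp (814 to 822) for the other both-ligand regions. Regions found after Activin A alone had a median of 578 bp (577 to 579). Within the lowest decile of scores the median was 568 bp in members and 568 bp in the other both-ligand regions. In the fourth decile it was 636 bp (624 to 645) in members and 652 bp (646 to 660) in the others, and in the fifth 691 bp (685 to 702) and 710 bp (701 to 719). Over the 8 deciles with at least 50 members, the median was lower in members in 6 and equal in 1. In the eighth it was 1045 bp (943 to 1098) in members and 1020 bp (1012 to 1028) in the others. These differences were small beside that between the overall medians. In all, the members covered 6.69 Mb of the 50.9 Mb in both-ligand peaks (13.1%).

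**Figure D3:**
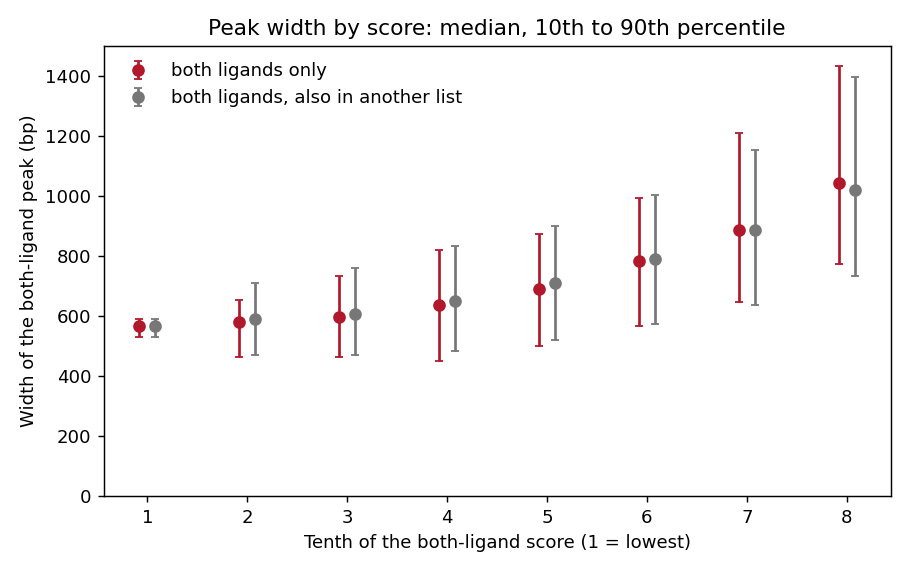
Width of the both-ligand peak (vertical axis, bp) by decile of the both-ligand score (horizontal axis), for both-ligand-only regions in red and other both-ligand regions in grey. Points are medians and bars run from the 10th to the 90th percentile; the medians of both sets rise together, from 568 bp in the lowest decile.

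The widest members included sites of moderate score. The widest, of 1692 bp, was at 87855506 to 87857197 on chromosome 16 (16q24.2) and scored 124. It belonged to a group of 5 members described further on, and an Activin A peak lay 284 bases away. Those of 1645 bp in 12q12 and 1606 bp in 18q23 were also among the 10 strongest. The others were 1594 bp wide at 93461307 to 93462900 on chromosome 11 (11q21, score 156) and 1562 bp wide at 28840583 to 28842144 on chromosome 1 (1p35.3, 140.4).

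Members lay in dark chromosome bands more often than other both-ligand regions did. Giemsa stain darkens bands that are rich in A and T, poor in genes and late to replicate, and leaves gene-rich bands pale. The 2 darkest classes, which hold 29.2% of the length of the chromosomes, contained 2369 members (21.8%, 21.0 to 22.5), against 15.8% (15.4 to 16.1) of the other both-ligand regions. Position was not used by the rule. The share was 17.3% (16.9 to 17.8) for regions found after Activin A alone and 14.7% (14.1 to 15.3) for regions in all 4 lists. In absolute terms members were still denser in pale bands, at 4.49 per Mb in unstained bands and 2.2 per Mb in the darkest class, while regions in all 4 lists stood at 5.89 and 1.65 per Mb. From the unstained to the darkest class, members made up 18.1%, 16.7%, 20.6%, 24.5% and 25.5% of both-ligand regions.

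The difference was also seen at equal score. In the lowest decile of scores 19.1% of members (17.7 to 20.5) were in dark bands, against 14.8% (13.4 to 16.2) of other both-ligand regions. In the third decile the shares were 23.4% (21.6 to 25.3) and 16.9% (15.7 to 18.2), and in the sixth 25.5% (22 to 29.3) and 16.2% (15.2 to 17.2). The share was higher in members in all 8 deciles that could be compared, and in 7 of them the intervals did not meet; the exception was the second decile, with 20.1% (18.6 to 21.7) and 17.3% (15.9 to 18.7). By chromosome, the share was higher in members on 20 of the 21 chromosomes that had both-ligand regions in dark bands. Chromosome 21 was the exception, with 14.9% (9.56 to 21.6) of members and 17.1% (13.8 to 20.7) of the others. On chromosome X the shares were 27.1% (21 to 33.9) and 15.4% (12.9 to 18.2).

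**Figure D4:**
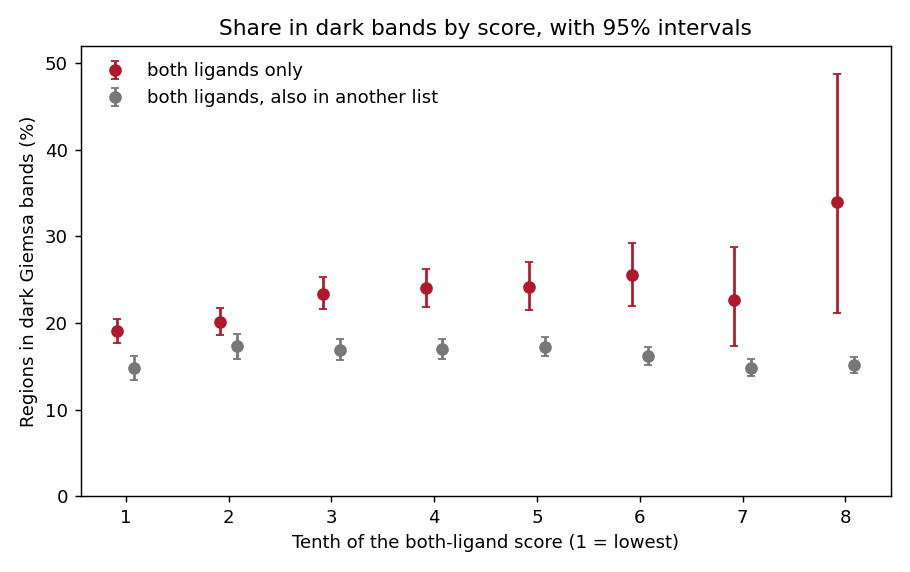
Share of regions in dark Giemsa bands (vertical axis, percent) by decile of the both-ligand score (horizontal axis), for both-ligand-only regions in red and other both-ligand regions in grey, with 95% exact binomial intervals. Red points lie above grey ones in all 8 deciles shown, at 19.1% against 14.8% in the lowest and 25.5% against 16.2% in the sixth.

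The dark-band share was also high in the few both-ligand regions outside the members that lacked an Activin A peak. All both-ligand regions without such a peak had 21.8% (21 to 22.6) in dark bands, against 15.7% (15.3 to 16) of those with one. Of the 11753 regions without one, 10890 were the members, so that value largely repeats theirs. Both-ligand regions that lacked an Activin A peak but had a Wnt3a peak stood at 23.4% (19 to 28.3 of 337 regions), and those that had a control peak at 22.7% (19.3 to 26 of 582), with 56 regions in both sets. These sets were not compared at equal score. Regions shared by the both-ligand and Activin A lists alone had 16.7% (16.2 to 17.3). In the mirror comparison within the Activin A list, the share was also higher in regions found after Activin A alone, at 17.3% (16.9 to 17.8), against 15.5% (15.2 to 15.9) of the other Activin A regions. Regions found after Activin A alone had 16.4% (15.8 to 17.1) in the lowest quartile of scores and 18.8% (18 to 19.6) in the second, 16.6% (15.3 to 17.8) in the third and 16% (9.90 to 23.8 of 119 regions) in the highest. The other Activin A regions of the same quartiles had 17.2% (16.1 to 18.3), 18.2% (17.4 to 19.1), 15.6% (15.1 to 16.2) and 13.7% (13.2 to 14.2), with overlapping intervals in all 4. The lists themselves differed too: at an equal length of 21078 peaks, dark bands held 14.9% (14.5 to 15.4) of the best both-ligand peaks, 13.8% (13.4 to 14.3) of the best Activin A peaks, 15.7% (15.3 to 16.2) of the Wnt3a peaks and 14.1% (13.7 to 14.6) of the best control peaks. With 1 library per group, treatment and library cannot be told apart here.

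Chromosome 19, the human chromosome richest in genes for its length, had a low share of members among its both-ligand regions. It held 287 of them (2.64%, 2.34 to 2.95), against 5.01% (4.81 to 5.21) of other both-ligand regions, 3.76% (3.54 to 4.0) of regions found after Activin A alone and 6.58% (6.16 to 7.02) of regions in all 4 lists. Per Mb the chromosome was not poor in members, at 4.85, against 5.73 on chromosome 17, 4.95 on chromosome 20 and 3.91 on chromosome 1. Members were 11.3% (10.1 to 12.6) of the both-ligand regions on chromosome 19. On the other autosomes the share ran from 16.3% (15.0 to 17.8) on chromosome 17 to 23.8% on chromosomes 18 (21.4 to 26.4) and 21 (20.5 to 27.3). It was 20.9% (18.4 to 23.7) on chromosome X. The share of members on chromosome 19 was below that of other both-ligand regions in each of the 8 deciles of score, but the intervals overlapped in 5 of them and were apart in 3. One of those apart, the seventh decile, had 1 chromosome 19 region among 220 members (0.455%, 0.0115 to 2.51). In the lowest decile the shares were 2.56% (2.02 to 3.19) and 3.93% (3.23 to 4.74), and in the second 3.18% (2.54 to 3.93) and 3.60% (2.96 to 4.33). None of the chromosome 19 bands that held a region is of either dark class, so no region there could count as dark.

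**Figure D5:**
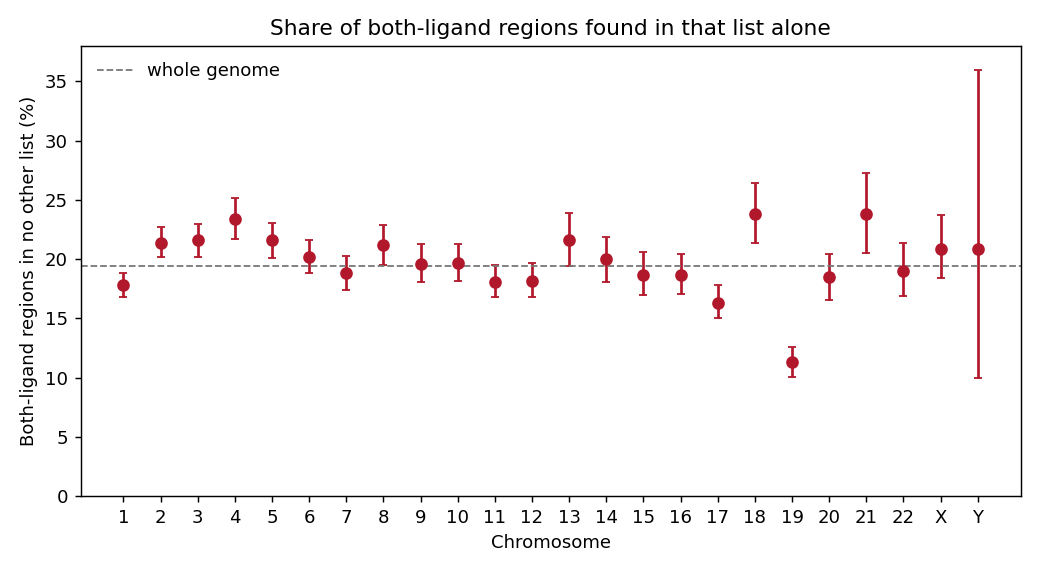
Share of both-ligand regions that were found in no other list (vertical axis, percent) on each chromosome (horizontal axis), with 95% exact binomial intervals and the genome-wide share of 19.4% as a dashed line. Chromosome 19 stands lowest at 11.3%.

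Members also lay farther than other both-ligand regions did from regions of every kind measured. The median distance to the nearest region of any kind was 6029 bases (5772 to 6349) for members and 4755 bases (4659 to 4869) for other both-ligand regions. To the nearest other both-ligand region it was 10394 bases (10004 to 10798) and 8056 bases (7897 to 8210), and to the nearest Activin A region 7780 bases (7500 to 8139) and 5929 bases (5808 to 6040). The median distance to the nearest region present in all 4 lists was 60476 bases (58296 to 62909) for members and 43968 bases (43220 to 44866) for other both-ligand regions. In the lowest quartile of scores it was 57094 bases (54483 to 59914) for members and 51808 (49108 to 54118) for the others. Regions shared by the both-ligand and Activin A lists alone, which like the members are absent from the Wnt3a and control lists, had a median of 50597 bases (49107 to 52006). Regions found after Activin A alone stood nearer the members, at 56512 bases (55334 to 57871). Their other medians were 5225 bases to any region, 9290 to a both-ligand region and 6462 to another Activin A region. Within 25 kb of a region in all 4 lists lay 29.7% of members (28.8 to 30.5), against 36.6% (36.2 to 37.1) of other both-ligand regions and 31.5% (30.9 to 32) of regions found after Activin A alone. Ends of chromosomes were less often their place than for Activin A-only regions: within 5 Mb of an end lay 10.5% of members (9.94 to 11.1), against 14.1% (13.6 to 14.5) of those regions and 11.6% (11.3 to 11.9) of other both-ligand regions. The member farthest from any other list was at 95019916 to 95020680 on chromosome X (Xq21.33, score 66.1), with the nearest Activin A peak 918573 bases away.

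The share of members varied between single bands. Of the 815 bands with a region, 773 had a member. Among the 453 bands with at least 50 both-ligand regions, the member share was lowest in 19q13.43, a band known for its zinc finger genes, at 5 of 97 (5.15%, 1.69 to 11.6). It was 5.77% (2.67 to 10.7) in 16p11.2, 6.17% (2.03 to 13.8) in 10q11.21, 6.25% (2.06 to 14) in 12q13.3 and 7.41% (4.11 to 12.1) in 12q13.13, the band of the HOXC genes. The highest shares were in 5q21.3, a band of the darkest class, at 22 of 50 (44.0%, 30 to 58.7), in 3q26.31 at 38.9% (25.9 to 53.1), in 14q21.1 at 37.3% (24 to 51.9), in 5p13.3 at 37% (24.3 to 51.3) and in 2q23.3 at 36.2% (24.0 to 49.9). The 5 lowest bands were unstained or of the palest stained class, while of the 5 highest 3 were dark and 5p13.3 and 2q23.3 were unstained. In 382 of the 453 bands the interval held the genome-wide 19.4%, in 40 it lay below and in 31 above.

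Bands that carry genes of this differentiation step mostly had member shares around that of the whole genome. These bands were listed from general knowledge of where the genes lie, and a band of several Mb holds many other genes, so a member there is not assigned to any of them. Across 19 such bands, members numbered between 5 and 51, and in 16 of them the interval of the member share held the genome-wide 19.4%. The interval lay above that share in 2 bands and below it in 1, and these are given first. In 3p24.1, a dark band that carries EOMES, an early T-box factor of mesendoderm, 20 of 61 both-ligand regions were members (32.8%, 21 to 46.0). In 18q11.2, which carries the endoderm factor GATA6, 32 of 114 were (28.1%, 20.1 to 37.3). In 6p21.33, the band of the pluripotency factor POU5F1 within the major histocompatibility region, 10 of 117 were (8.55%, 4.17 to 15.2). The bands of other endoderm and pluripotency factors did not stand apart from 19.4%. The interval held it for the endoderm factors SOX17 (8.91% to 30.4%) and FOXA2 (10.3% to 28.6%). The same was true of the pluripotency factors SOX2 (12.7% to 35.8%) and NANOG (11.4% to 23.9%). The bands thus showed no common shift by the role of the gene.

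The bands of other genes in this response were closer to the whole genome. In 6q27, with the T-box factor TBXT, the members were 36 of 146 (24.7%, 17.9 to 32.5), the strongest of them scoring 166. In 10q22.1, with the ligand NODAL, they were 33 of 180 (18.3%, 13.0 to 24.8), and in 1q42.12, with the Nodal inhibitors LEFTY1 and LEFTY2 and the streak factor MIXL1, 11 of 78 (14.1%, 7.26 to 23.8). In 17q24.1, with the Wnt feedback inhibitor AXIN2, they were 5 of 32 (15.6%, 5.28 to 32.8), and in 4q25, with the Wnt effector LEF1, 13 of 107 (12.1%, 6.63 to 19.9). The title of the series names HAS2, a hyaluronan synthase, and ALDH3A2, a fatty aldehyde dehydrogenase. In the band of HAS2, 8q24.13, members were 15 of 78 (19.2%, 11 to 29.7), and in that of ALDH3A2, 17p11.2, 33 of 197 (16.8%, 11.8 to 22.7).

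Most members had no other member nearby. Of the 10890, 7823 (71.8%) had none within 25 kb, and the other 3067 fell into 1355 groups, of which 18 held at least 5. No other set of regions was grouped in this way, so these numbers do not tell scattering from clustering. The largest group had 8 members over 66.5 kb, at 28739392 to 28805857 on chromosome 6 in 6p22.1, a band known for histone and transfer RNA genes. Those 8 were among 9 both-ligand regions there, with 1 region found after Activin A alone and none in all 4 lists, and the highest score was 105. A further group of 5 members lay in the same band at 27738777 to 27794162, with scores up to 155. It lay among 9 both-ligand regions, with no Activin A-only region and 1 region in all 4 lists. The groups here and below were picked for their number of members, and each span runs from its first to its last member. A high share of members inside them thus follows in part from that choice. In the whole of 6p22.1, 29 of 171 both-ligand regions were members, and the interval of that share (11.7% to 23.4%) held the genome-wide 19.4%.

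The other large groups also held shared regions. In 6q15, at 91144933 to 91206714 on chromosome 6, 7 of 11 both-ligand regions were members, with scores up to 93.7. In 17q21.33, at 48635983 to 48664135 on chromosome 17, 6 of 7 were, with scores up to 127. The groups of 6 in 19q13.12 (35574971 to 35634149 on chromosome 19) and in 1p34.1 (44938384 to 44998853 on chromosome 1) lay among 11 and 10 both-ligand regions. The group of 5 in 16q24.2, at 87853927 to 87878579, held the widest member and 5 of the 6 both-ligand regions there. Along the both-ligand list, the longest unbroken series of members was 7, spread over 3.18 Mb from 4q12 to 4q13.1 on chromosome 4. Such series were not measured for other sets.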

How the data were processed

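Peak lists of 4 ATAC-seq libraries, 1 per group, were analysed. Each deposited list has 5 columns that give a position, a MACS-style peak name and a score. The score is deposited by the authors as 1 value per peak. From the values it looks like a p-value on a log scale, which no source used here states. The build was hg19 and the tools included Bowtie2 2.2.2 and CASAVA 1.8, per the submitters' processing notes. Caller settings, duplicate removal, the read shift for the transposase and read numbers are not given in the sources used here; each could change which weak peaks are listed.

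Overlapping or book-ended peaks were merged. Scores were ranked within 1 list only; a region took its best peak's score and width. Bands came from circlize 0.4.16 (hg19) and chromosome lengths from GenomeInfoDb 1.38.1, and a region was placed by its centre. Dark bands are the classes gpos75 and gpos100. Shares carry exact (Clopper-Pearson) 95% intervals and medians order-statistic intervals. There were no replicates and no test. Regions named were the 10 strongest, the 5 widest, the 5 largest groups within 25 kb, and 5 just inside and 5 just outside the rule; other groups, bands and the farthest member were chosen after values were seen. No hg19 gene positions or sequence were used here, so the planned promoter, gene and motif analyses were not run. The merging was tested on simulated data. Members and lists were chosen with earlier results of these data known. Python 3.11.15, numpy 2.4.6, pandas 2.3.3, scipy 1.17.1 and matplotlib 3.10.9 were used. Coordinates count from 1.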

Additional observations from a re-analysis of the deposited data

How the results depend on the processing

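The number of members stayed within 1.5 times of 10890 in 11 of 17 alternatives, among them those without the control or the Wnt3a list. It was 6312 when no other peak was allowed within 5 kb, 3911 and 1692 with the top 50% and top 25% of each list, 898 when a member had to be in the top 50% with the other lists whole, 2216 with lists of equal length, and 31436 without the Activin A list. Fewer peaks entered by construction in the stricter ones; otherwise the cause was not tested.

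The dark-band share of members minus that of other both-ligand regions was 5.97 percentage points (5.13 to 6.83) and positive in all 22 alternatives. Outside that interval it was 7.0, 7.58 and 11.7 with no other peak within 500 bases, 1 kb and 5 kb, 3.18 with an overlap of 50%, 4.62 with 500 bases around each centre, 9.79 for members in the top 50%, 3.76 at equal length and 3.21 without the Activin A list. For the settings with no other peak nearby, only members were filtered and the comparison regions were left whole. Those values thus compare unlike sets. By quartile of score the difference was 3.64, 7.17, 9.78 and, on 12 members, 10.2. With the darkest class alone, an alternative chosen after seeing the data like the one without chromosome 19, it was 2.97. The share on chromosome 19 ran from 0 (the 12 members of the top quartile) to 4.73%, and the median width from 571 to 1124 bp; the upper values were those with the top 25% of each list. Alternatives that need genes or sequence were not run. Depth is unknown for all 4 libraries. No paired analysis was possible because there was 1 library per group.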
